A study of Mus musculus with 6 samples.

Results

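The 74 genes described here are interleukins and interleukin receptors of the mouse, found by their symbols among the 41064 genes of the deposited table. The rule took every protein-coding symbol made of "Il", a number and a lower-case ending, with Il4i1, an amino acid oxidase, left out. Il3, Il9, Il20 and Il31 are not among the 74. The 74 comprise 30 ligands, 3 secreted antagonists and 41 genes counted as receptors by name, among them Il22ra2, whose secreted product binds interleukin 22. They were measured by RNA sequencing in aortas of mice given angiotensin II (Ang II), a peptide that constricts vessels and is used to provoke remodelling of the arterial wall. The wild type group (WT, Ang II) and the group labelled as knockout of Josd2, a deubiquitinase (JOSD2 KO, Ang II), had 3 libraries each, all from aorta. Strain, sex, age, the kind of deletion, and the dose and duration of Ang II are not stated in the labels. Both groups received Ang II, and untreated aortas were not analysed here.

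Interleukins are secreted proteins by which immune and tissue cells signal to each other, and most act through receptors made of a chain that recognises the ligand and a chain shared by a family. Interleukin 6 and interleukin 11 bind their own receptor chains, encoded by Il6ra and Il11ra1, and both then signal through gp130, encoded by Il6st, to the JAK kinases and the STAT3 factor. The interleukin 1 family signals through Myd88 and NF-kB and is held in check by secreted antagonists and decoy receptors. In the vessel wall interleukin 6 and interleukin 11 are known as products of stimulated smooth muscle cells and fibroblasts, and interleukin 6 also of macrophages.

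Summed counts per library were 63612353 to 74241278 in wild type and between 69788553 and 75886761 in the labelled knockouts, in the deposited unit. Low counts peak at 4, and 4 counts were taken as 1 read pair for detection limits, an inference that no source states. Among low counts, only 26.2% to 27.7% per library were multiples of 4. Most low counts therefore do not bear out this unit, and the limits are rough. Levels are given as CPM, counts relative to a library size scaled with TMM factors, and means as mean ± SD of n = 3 libraries. The test was edgeR's quasi-likelihood test over 20132 genes with Benjamini-Hochberg adjustment, and a gene passed at an adjusted p under 0.05. Josd2 had 1649, 1762 and 1890 counts in wild type and 1742, 1737 and 1780 in the libraries labelled knockout, or 30.1 ± 0.837 and 20.98 ± 0.947 CPM (log2 change -0.52, SE 0.07, edgeR adjusted p = 0.000244) and stood at -0.11 when scaled to plain library totals (edgeR adjusted p = 0.231). The targeted transcript was thus still detected at a similar count, and every direction below rests on the label. Mitochondrially encoded genes took 36.2% of counts in each wild type library and 23.8% to 23.9% in each labelled knockout, and with library totals the median gene lies 0.41 higher on the log2 scale in the labelled knockouts. The design text speaks of 3 mice a group without tying libraries to animals. The p-values therefore measure the spread among these libraries, which could be technical, and cannot be read as measuring the spread among animals. The spread among libraries was narrow for some genes, such as Fos at 203.6, 203.3 and 203.6 CPM in wild type. It was wide for others, such as Lifr at 52.1, 50.4 and 7.64 CPM in wild type. Whether the libraries are separate animals was not tested.

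On the TMM scale receptors were called in both directions, while the called ligands and antagonists were lower, a contrast that was not tested. Of 33 ligands and antagonists, 16 passed the filter on low counts, 4 fell in the labelled knockouts (Il6, Il11, Il33 and Il1rn), none rose and 12 did not pass. Of 41 receptors, 32 passed the filter, 8 rose, 4 fell and 20 did not pass. Il11ra2 among the 8 is a near copy of Il11ra1, which also rose, so its call may not be separate. Across all tested genes 24.7% were called, 13.2% higher and 11.5% lower, against 16 of the 48 tested members. The median log2 fold change of the tested members was -0.51 for ligands and antagonists and 0.17 for receptors, beside -0.0031 for all tested genes, and no test compared these medians. On the scale of library totals, where Il33 turned to 0.029, the calls became 2 higher and 3 lower for ligands and antagonists and 16 higher and 1 lower for receptors, with medians of -0.10 and 0.58. Across all tested genes 50.6% were called on that scale, 46.8% higher and 3.81% lower, with a median of 0.41. Of the 16 calls, 12 were kept in the same direction on that scale, and Il33, Il13ra1, Il3ra and Il10ra lost theirs.

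**Figure D1:**
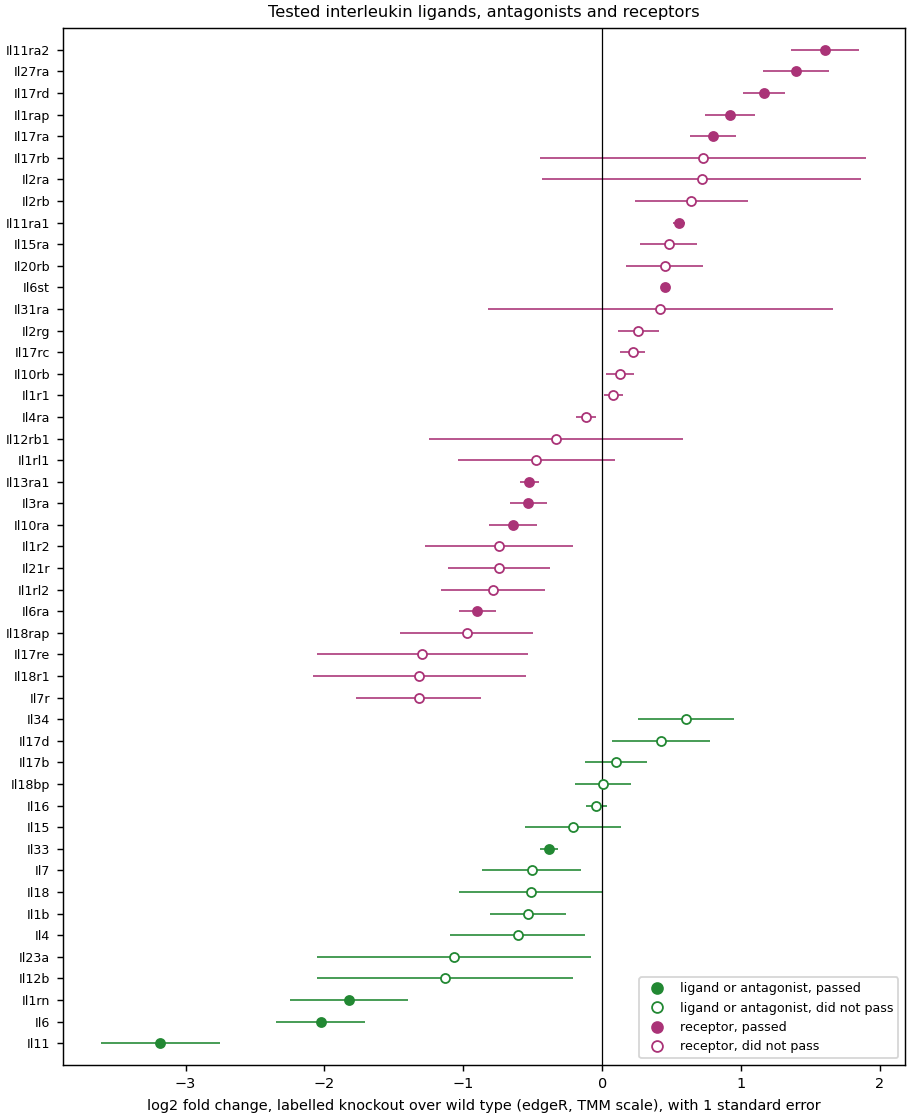
Log2 fold change, labelled knockout over wild type on the TMM scale, with 1 standard error, for the tested ligands and antagonists (green, below) and receptors (purple, above), filled where edgeR's adjusted p was under 0.05. Il13ra2, with 0 counts in wild type, is left out because its fitted fold change is no bound; all 4 filled green points lie to the left of 0, and Il33 among them crosses to 0.029 with library totals.

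Most members were rare in these aortas. A total of 26 members did not pass the filter, 6 of them with 0 counts in all 6 libraries, and the highest count any of the 26 reached in a library was 33. The 6 at 0 were the T cell and epithelial cytokine genes Il13, Il17a, Il21, Il22 and Il24 and the antagonist gene Il1f5. On that inference a count of 0 allows up to 3 read pairs, 12 counts in the deposited unit, or 0.137 to 0.218 CPM depending on the library. Il10, which encodes an anti-inflammatory interleukin, had 17, 6 and 0 counts in wild type against 6, 8 and 13 in the labelled knockouts. Il1a, an alarm signal released by damaged cells, had 8, 3 and 4 counts against 0, 1 and 7, below that limit in every library. The filter removed these genes, so whether they differed between the groups was not tested.

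Abundance per length was led by the gp130 system. On the deposited FPKM scale, which divides by transcript length, the highest wild type level was that of Il11ra1, at 23.3 ± 0.902, followed by Il6st at 15.4 ± 0.113 and by the ligand gene Il33 at 11.1 ± 0.791. Il13ra1, a receptor chain for interleukin 13, came next at 6.74 ± 0.217 FPKM. Il17rc at 5.20 ± 0.213 FPKM and Il1r1 at 5.07 ± 0.421 FPKM differed by less than their spread. Il6 stood at 0.800 ± 0.237 FPKM in wild type against 0.259 ± 0.0471 in the labelled knockouts, going from rank 20 to rank 33 of 74, and Il11ra2 went from rank 17 to rank 9. Ranks within a group do not depend on the scaling between groups.

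**Figure D2:**
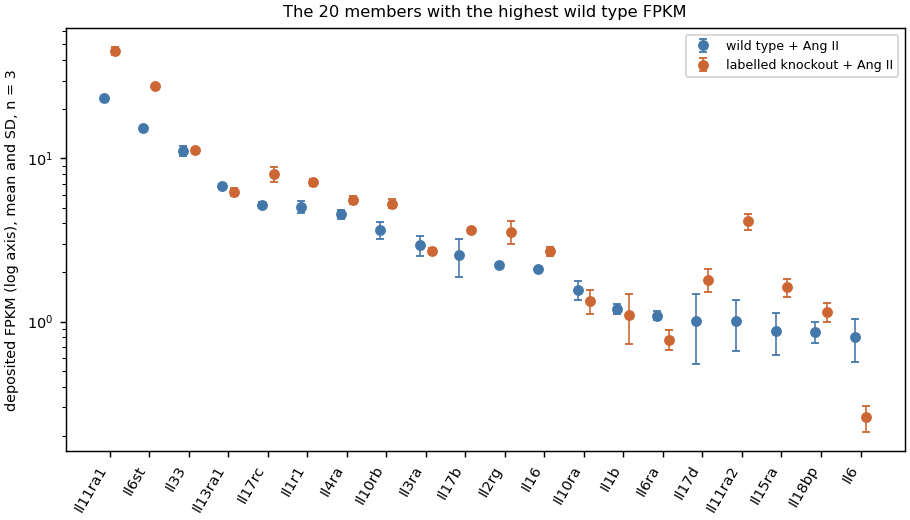
Deposited FPKM (log axis), mean and SD of 3 libraries, of the 20 members with the highest wild type mean, in order, with wild type in blue and the labelled knockout in orange. Il11ra1 and Il6st lead in both groups; FPKM is scaled to library totals and not with TMM factors, so points of the 2 groups compare as on library totals.

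In the gp130 family both tested ligands fell, 4 receptor chains rose and 1 fell, and each of these 7 calls held on library totals too. They are 87.5% of the tested members. Of all tested genes 24.7% were called, or 50.6% with library totals, and no test compared these shares. Il11ra2, 1 of the 4 chains, is a near copy of Il11ra1, so its call may not be separate. Il11, whose product drives fibroblasts toward matrix production, stood at 1.81, 1.67 and 2.10 CPM in wild type and at 0.149, 0.149 and 0.312 CPM in the labelled knockouts. The groups did not overlap, and counts in the labelled knockouts were 12, 13 and 26, the lowest of them at the assumed detection limit of 12. The difference was 9.08-fold (log2 change -3.18, SE 0.43, edgeR adjusted p = 0.00025). Il6, the principal inducer of the acute phase response, stood at 2.63, 1.90 and 3.45 CPM in wild type and at 0.784, 0.596 and 0.576 CPM in the labelled knockouts. Every wild type library was above every labelled knockout library, by 4.07-fold in the fit (log2 change -2.03, SE 0.32, edgeR adjusted p = 0.000803). The third ligand gene, Il27, had 0, 0 and 17 counts against 4, 3 and 5 and was not tested.

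Upstream sequence from RefSeq on GRCm38.p6 was found for 13 of the 16 members that passed the test, at 18 start sites. Each window holds the 250 bases before a start, and 3 motifs were searched separately on both strands. Matches to different motifs did not overlap in these windows. The motifs were TGANTCA for AP-1, the Fos and Jun factor, GGGA, any base, then TTTCC for NF-kB and TTCNNNGAA for STAT factors. The windows printed are the 4 with a match, chosen for that, and capitals mark it. Among 32851 listed promoters of the same length, 6.75% hold the AP-1 letters, 0.356% the NF-kB letters and 7.02% the STAT letters.
Il6 (chr5:30012864-30013113, plus strand): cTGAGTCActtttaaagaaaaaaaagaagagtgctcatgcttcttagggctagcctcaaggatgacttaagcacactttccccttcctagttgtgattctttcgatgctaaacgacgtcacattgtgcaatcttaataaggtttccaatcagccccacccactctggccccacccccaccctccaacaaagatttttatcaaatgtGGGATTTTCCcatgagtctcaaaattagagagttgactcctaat
Il11 (chr7:4778142-4778391, minus strand): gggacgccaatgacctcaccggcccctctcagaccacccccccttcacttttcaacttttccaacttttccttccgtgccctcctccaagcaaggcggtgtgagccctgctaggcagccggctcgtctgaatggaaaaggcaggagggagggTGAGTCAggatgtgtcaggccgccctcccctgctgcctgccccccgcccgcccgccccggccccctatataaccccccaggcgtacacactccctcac
Il1rn (chr2:24336610-24336859, plus strand): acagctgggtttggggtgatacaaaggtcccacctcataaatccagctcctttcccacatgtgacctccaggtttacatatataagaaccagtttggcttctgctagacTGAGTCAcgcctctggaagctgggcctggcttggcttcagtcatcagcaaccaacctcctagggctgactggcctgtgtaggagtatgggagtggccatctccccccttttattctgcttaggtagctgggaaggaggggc
Il13ra2 (chrX:147429193-147429442, minus strand): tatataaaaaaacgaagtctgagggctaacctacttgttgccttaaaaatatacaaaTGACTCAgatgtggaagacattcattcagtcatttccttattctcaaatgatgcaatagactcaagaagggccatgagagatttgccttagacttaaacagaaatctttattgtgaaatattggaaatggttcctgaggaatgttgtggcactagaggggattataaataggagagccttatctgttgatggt
The AP-1 letters start 249 bases before the Il6 start, 98 before this Il11 start, 141 before this Il1rn start and 193 before the Il13ra2 start. The NF-kB letters start 44 bases before the Il6 start. Of the 18 windows, these were the only ones with a match to any of the 3 motifs, and other start sites of Il11 and Il1rn had none. Il13ra2 moved opposite to the other genes with the AP-1 letters, and a match is a description of the letters, not a binding site.

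The receptor chain of interleukin 6 and the shared signalling chain went opposite ways. Il6ra stood at 12.6, 12.2 and 13.7 CPM in wild type and 7.80, 6.94 and 5.88 CPM in the labelled knockouts, without overlap (log2 change -0.90, SE 0.13, edgeR adjusted p = 0.000505). Il6st stood at 233, 231 and 234 CPM against 319, 321 and 312 CPM. The spread within each group was small beside the gap between them (log2 change 0.45, SE 0.02, edgeR adjusted p = 1.71e-07). Il27ra, the receptor chain for interleukin 27, rose 2.63-fold, from 1.61, 1.28 and 1.23 CPM to 3.77, 3.08 and 4.01 CPM (edgeR adjusted p = 0.00125). Il31ra, which pairs with the oncostatin M receptor, was near the limit at 0.186 ± 0.173 and 0.251 ± 0.186 CPM and did not pass.

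Il11ra1, the receptor chain for interleukin 11, stood at 138, 140 and 148 CPM in wild type and 209.8, 197 and 218 CPM in the labelled knockouts. All labelled knockout libraries were higher, 1.47-fold in the fit (log2 change 0.55, SE 0.04, edgeR adjusted p = 3.67e-06). Il11ra2, a second copy of the gene on chromosome 4, stood at 2.94, 1.67 and 3.49 CPM against 8.26, 9.15 and 7.31 CPM, again without overlap (log2 change 1.61, SE 0.24, edgeR adjusted p = 0.000611). The Il11ra2 transcript of 1299 bases aligned over its whole length to Il11ra1 (bases 301 to 1599 of a transcript of 1953 bases) with 13 mismatches and no gap, an identity of 99.0%. The stretch of 90 bases with the most differences, 4, is printed from the GENCODE M21 transcripts to show how few bases can tell reads of the copies apart, with the differing bases in capitals.
Il11ra1 (transcript bases 1327 to 1416): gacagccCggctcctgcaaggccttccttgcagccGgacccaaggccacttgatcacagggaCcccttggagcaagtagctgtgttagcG
Il11ra2 (transcript bases 1027 to 1116): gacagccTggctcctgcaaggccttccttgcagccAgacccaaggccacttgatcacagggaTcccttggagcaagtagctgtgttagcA
Gm13305, another copy on the same chromosome, shares sequence with both and rose as well, from 1.65 ± 0.498 to 4.32 ± 1.34 CPM (log2 change 1.39, SE 0.31, edgeR adjusted p = 0.00721). No source used here says how the authors assigned reads that match several copies, so the levels of Il11ra2 and Gm13305 are uncertain. With the counts of the 3 copies summed, an alternative chosen after seeing the data, the difference was 0.59 (SE 0.04, edgeR adjusted p = 1.18e-06).

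**Figure D3:**
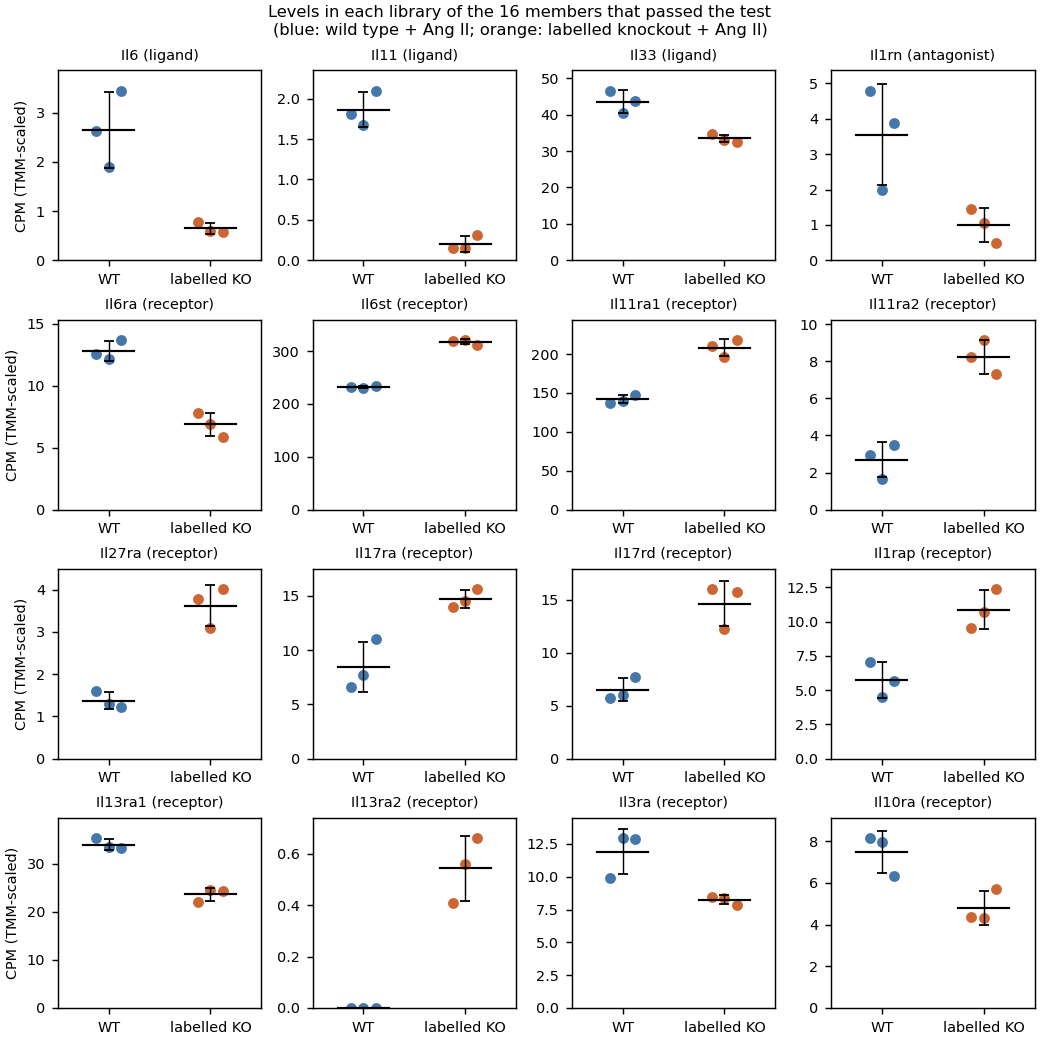
CPM on the TMM scale in each library (points), with mean (line) and SD (bar) of 3 libraries, for the 16 members that passed edgeR's test, wild type in blue and labelled knockout in orange, each axis from 0. The groups do not overlap in any of these panels, which were picked by the test. Of all 48 tested members, 21 do not overlap (43.75%), near the 41.1% of all tested genes. Il33, Il13ra1, Il3ra and Il10ra lose their calls with library totals, where Il33 turns to 0.029.

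In the interleukin 1 family, 12 of 17 members were tested, of which the ligand gene Il33 and the antagonist gene Il1rn fell and the receptor gene Il1rap rose, although Il33 turned to 0.029 with library totals (edgeR adjusted p = 0.759). Il1rn encodes the receptor antagonist that blocks interleukin 1. It stood at 4.79, 1.99 and 3.87 CPM in wild type and 1.46, 1.07 and 0.480 CPM in the labelled knockouts. The groups did not overlap but both were spread widely, and the fit gave a 3.54-fold decrease (log2 change -1.82, SE 0.43, edgeR adjusted p = 0.00917). Il33, an alarm signal stored in nuclei of stromal and endothelial cells, stood at 46.5, 40.4 and 43.8 CPM against 34.7, 33.1 and 32.6 CPM (log2 change -0.38, SE 0.07, edgeR adjusted p = 0.00146). Its deposited FPKM was 11.1 ± 0.791 and 11.3 ± 0.358. Its decrease also passed with DESeq2's size factors in edgeR (-0.39, edgeR adjusted p = 0.0013), and was lost with library totals and on the FPKM scale.

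Il1b, the inflammasome-processed ligand, stood at 3.35, 3.02 and 2.98 CPM in wild type and 2.28, 1.39 and 2.81 CPM in the labelled knockouts. These groups did not overlap, but the difference did not pass (log2 change -0.53, SE 0.27, edgeR adjusted p = 0.195). Il18, its relative, gave -0.51 (SE 0.52) and Il18bp, which neutralises interleukin 18, gave 0.0070 (SE 0.20), neither passing. Il1rap, the accessory chain shared by the receptors for interleukins 1 and 33, stood at 7.05, 4.48 and 5.67 CPM against 9.53, 10.7 and 12.4 CPM. All 3 labelled knockout libraries were higher (log2 change 0.92, SE 0.18, edgeR adjusted p = 0.00297), and an antisense gene overlaps 4.86% of its exon bases.

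The 6 receptor genes Il1r2, Il1r1, Il1rl2, Il1rl1, Il18r1 and Il18rap lie in a cluster on chromosome 1, from 40074079 to 40551705 in the coordinates of the table, and none of them passed the test. Il1r1, the signalling receptor of interleukin 1, was the abundant one, at 43.9 ± 3.62 and 46.5 ± 2.44 CPM (log2 change 0.081, SE 0.07, edgeR adjusted p = 0.459), and passed upward at 0.49 with library totals (edgeR adjusted p = 0.00015). The decoy receptor gene Il1r2 was at 0.688 ± 0.276 and 0.410 ± 0.0861 CPM. Il1rl1, which encodes the interleukin 33 receptor ST2, was at 1.19 ± 0.493 and 0.855 ± 0.545 CPM, with 20 to 103 counts per library. Il18r1 and Il18rap, the chains of the interleukin 18 receptor, gave -1.32 (SE 0.77) and -0.97 (SE 0.48). The fitted values of the cluster other than Il1r1 were below 0 with standard errors of 0.37 to 0.77, too wide to place them on either side.

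Among the 5 receptor genes of the interleukin 17 family, 2 rose and none fell, also with library totals, where 3 rose. Of all tested genes, 13.2% were higher on the TMM scale and 46.8% with library totals, and no test compared these shares. Il17rd, known as Sef and as an inhibitor of fibroblast growth factor signalling, stood at 5.77, 6.01 and 7.75 CPM in wild type and 15.97, 12.2 and 15.7 CPM in the labelled knockouts. The lowest labelled knockout library was above the highest wild type library (log2 change 1.17, SE 0.15, edgeR adjusted p = 0.000221). Il17ra, the chain common to the receptors of this family, stood at 6.65, 7.69 and 11.0 CPM against 14.0, 14.6 and 15.6 CPM. Wild type libraries were spread more widely than labelled knockouts, and the groups did not overlap (log2 change 0.80, SE 0.17, edgeR adjusted p = 0.00503). Il17rc, the partner of Il17ra for interleukin 17A, did not pass (0.22, SE 0.09, edgeR adjusted p = 0.117), but did with library totals (0.63, edgeR adjusted p = 0.000192). Of the ligands, Il17a was at 0 counts in all 6 libraries, Il17f had 33 counts in wild type 3 and 0 elsewhere, and Il17b and Il17d were tested without passing, at 0.098 (SE 0.22) and 0.43 (SE 0.35).

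The receptor chains for interleukin 13 moved apart, although Il13ra1 lost its call with library totals. Il13ra1, the signalling chain that pairs with Il4ra, stood at 35.3, 33.4 and 33.4 CPM in wild type and 22.1, 24.5 and 24.3 CPM in the labelled knockouts. The groups were well apart on this scale (log2 change -0.53, SE 0.07, edgeR adjusted p = 0.000202) and were at -0.12 with library totals (edgeR adjusted p = 0.197). Il13ra2, which binds interleukin 13 as a decoy, had 0 counts in all 3 wild type libraries and 33, 49 and 55 counts in the labelled knockouts, or 0.410, 0.561 and 0.661 CPM. Against the assumed limit of 12 counts per library it was at least 2.65-fold higher (edgeR adjusted p = 0.00192). With the counts divided by 4 it fell below the filter on low counts and was not tested. Il4ra, the shared chain for interleukins 4 and 13, did not pass (-0.11, SE 0.07, edgeR adjusted p = 0.295) and turned to 0.30 with library totals, passing upward (edgeR adjusted p = 0.00505). Il4, the ligand, was at 0.828 ± 0.351 and 0.542 ± 0.154 CPM and Il13 at 0 counts.

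Chains of the other lymphocyte cytokine receptors did not pass on the TMM scale. Il2rg, the common gamma chain shared by receptors for interleukins 2, 4, 7, 15 and 21, stood at 7.14, 7.25 and 7.42 CPM against 10.3, 8.20 and 7.61 CPM. These groups did not overlap and the difference did not pass (0.26, SE 0.14, edgeR adjusted p = 0.234), but it did at 0.67 with library totals (edgeR adjusted p = 0.00256). A read-through gene on the same strand overlaps 30.5% of its exon bases. Il7r, the interleukin 7 receptor chain of T cells and their precursors, stood at 1.25, 3.66 and 1.97 CPM against 0.485, 1.17 and 1.09 CPM and missed the threshold (-1.32, SE 0.45, edgeR adjusted p = 0.0552). It passed with DESeq2 (adjusted p = 0.00696) and without wild type 1 (-1.61, edgeR adjusted p = 0.0283). Il15ra, which presents interleukin 15 to other cells, gave 0.48 (SE 0.21, edgeR adjusted p = 0.123). It passed with library totals (0.89, edgeR adjusted p = 0.00394), with DESeq2 (0.48, adjusted p = 0.0424) and without wild type 2 (0.75, edgeR adjusted p = 0.014). Of the ligands Il7 and Il15, levels were 2.26 ± 0.778 and 1.97 ± 0.620 CPM in wild type, and neither passed, at -0.51 (SE 0.36) and -0.21 (SE 0.35).

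Il3ra and Il10ra fell on the TMM scale and lost their calls with library totals (-0.12 and -0.23). Il3ra, the interleukin 3 receptor chain, stood at 9.93, 12.9 and 12.9 CPM in wild type and 8.50, 8.39 and 7.84 CPM in the labelled knockouts (-0.53, SE 0.13, edgeR adjusted p = 0.0129). Without single libraries its log2 change stayed between -0.64 and -0.47, and the adjusted p passed the threshold in 4 of 6 such edgeR fits, missing it without wild type 3 (0.0508) and without labelled knockout 3 (0.0569). Il10ra, the leukocyte receptor chain for interleukin 10, stood at 8.14, 7.97 and 6.33 CPM against 4.35, 4.32 and 5.72 CPM (-0.64, SE 0.17, edgeR adjusted p = 0.0204). Without single libraries its log2 change stayed between -0.78 and -0.57, and the edgeR adjusted p missed the threshold without wild type 1 (0.0712), wild type 2 (0.0637), labelled knockout 1 (0.0849) or labelled knockout 2 (0.086). Il10rb, the second chain of that receptor and present on most cells, did not pass (0.13, SE 0.10, edgeR adjusted p = 0.398), but did with library totals (0.54, edgeR adjusted p = 0.000906).

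In the interleukin 12 family 3 of 6 members were tested and none passed. The remaining ligands included Il16 and Il34. Il16, a CD4-binding chemoattractant, was at 22.4 ± 0.574 and 21.8 ± 1.28 CPM, with a log2 fold change of -0.041 (SE 0.076, edgeR adjusted p = 0.756) that became 0.37 with library totals (edgeR adjusted p = 0.002), while 15.3% of its exon bases are overlapped by Stard5 on the other strand. Il34, a ligand of the macrophage receptor Csf1r, stood at 0.888, 1.21 and 2.25 CPM against 2.04, 2.55 and 2.04 CPM, with overlap, and did not pass (0.60, SE 0.35, edgeR adjusted p = 0.253). It passed with library totals (1.01, edgeR adjusted p = 0.0311) and without wild type 3 (1.08, edgeR adjusted p = 0.040).

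Genes that share or carry interleukin signals but bear other names moved in both directions. The counts of this and the following lists stand beside 24.7% of all tested genes called on the TMM scale. With library totals, 46.8% of all tested genes were higher and 3.81% lower. No list was tested against these shares. Among 10 other ligands and receptors of the gp130 family, 1 rose and 3 fell. Lif, a ligand related to interleukins 6 and 11, fell from 1.59 ± 0.317 to 0.457 ± 0.111 CPM (-1.80, SE 0.37, edgeR adjusted p = 0.00459). Ebi3, the partner subunit of interleukin 27, fell as well (-2.01, SE 0.46, edgeR adjusted p = 0.00853), and an antisense gene overlaps 23.4% of its exons. Osmr, the oncostatin M receptor, fell slightly (-0.17, SE 0.05, edgeR adjusted p = 0.0202) and turned to 0.24 with library totals, passing upward (edgeR adjusted p = 0.00112). With library totals this list counted 3 higher and 2 lower.

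Of 20 JAK kinases, STAT factors and their regulators, 6 rose, 3 fell and 11 did not pass, with a median log2 fold change of 0.13, and with library totals 15 rose and 2 fell. Socs3, the feedback inhibitor of gp130 that STAT3 induces, fell from 39.8 ± 1.83 to 21.96 ± 2.66 CPM (-0.86, SE 0.09, edgeR adjusted p = 3.79e-05). Jak3, the kinase of the common gamma chain, rose from 7.91 ± 1.56 to 19.1 ± 1.68 CPM (1.27, SE 0.14, edgeR adjusted p = 6.57e-05), and Stat5b rose by 0.58 (SE 0.06). Stat3 itself did not pass (-0.046, SE 0.06, edgeR adjusted p = 0.627). Of 8 receptor chains and ligands under other names, 2 rose and 3 fell, but with library totals 4 rose and none fell. Csf2rb, the chain that receptors for interleukins 3 and 5 share, rose by 0.78 (SE 0.08) and its copy Csf2rb2 by 0.98 (SE 0.14), while Csf1r fell by 0.46 (SE 0.05), a call that was lost at -0.045 with library totals.

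Of 16 adaptors and NF-kB components downstream of the interleukin 1 receptors, 2 rose and 3 fell, and with library totals 11 rose and 1 fell. Nfkbia, the inhibitor of NF-kB, rose from 24.6 ± 2.17 to 44.1 ± 0.922 CPM, and Nfkbiz, a cofactor needed for Il6 transcription, fell from 41.8 ± 4.72 to 19.4 ± 2.32 CPM. Irak2, a kinase of the receptor complex, gave -0.32 (SE 0.09, edgeR adjusted p = 0.0212), or 0.091 with library totals. Of 12 genes of the inflammasome, which matures interleukins 1 beta and 18, none rose and 4 fell, but with library totals 3 rose and 2 fell. Nlrp3, its sensor, fell from 2.16 ± 0.538 to 0.409 ± 0.0672 CPM (-2.39, SE 0.34, edgeR adjusted p = 0.000389), the adaptor gene Pycard fell by 0.98 (SE 0.15) and Casp4 fell by 0.66 (SE 0.13), the last to -0.25 without a call on library totals. Of 7 genes of interleukin 17 signalling, Cebpd rose by 0.40 (SE 0.05) and Traf5 by 0.35 (SE 0.10), and Traf2 was at -0.31 (SE 0.09), passing on the TMM scale and not with library totals (0.098). With library totals 5 of the 7 rose and none fell.

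Of 20 genes that interleukin 6 or interleukin 1 can induce, 9 fell, 5 rose and 6 did not pass, with a median log2 fold change of -0.41, and with library totals 9 fell and 8 rose with a median of 0.0016. Fos, which encodes an AP-1 subunit, fell from 203 ± 0.179 to 81.4 ± 1.07 CPM (-1.32, SE 0.03, edgeR adjusted p = 1.39e-10). Timp1, a protease inhibitor, fell from 151 ± 4.20 to 43.3 ± 2.32 CPM (-1.80, SE 0.05) and Vcam1, which binds leukocytes, fell from 208 ± 4.84 to 73.9 ± 3.60 CPM (-1.49, SE 0.04). The list did not move in 1 direction, as the acute phase gene Saa3 rose by 1.46 (SE 0.23) and Hp, which encodes haptoglobin, by 1.19 (SE 0.04).

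**Figure D4:**
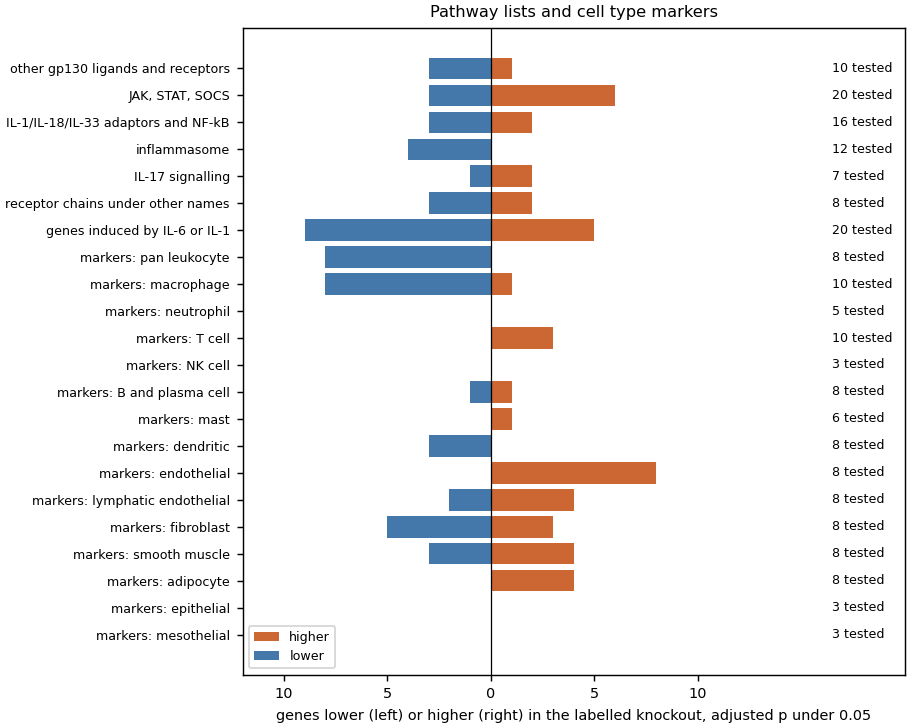
Number of genes in each pathway list or cell type marker list that were lower (left, blue) or higher (right, orange) in the labelled knockouts by edgeR on the TMM scale, with the number tested at the right. All 8 leukocyte markers are lower and all 8 endothelial markers higher, on library totals as well, while several pathway lists gain higher calls on library totals.

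Markers of the cells that carry these receptors moved between the groups too. In bulk RNA fewer cells of a type and less RNA per cell cannot be told apart. All 8 general leukocyte markers fell, with a summed level of 209.4 to 224 CPM in wild type and 92.4 to 97.4 CPM in the labelled knockouts. Of 10 macrophage markers 8 fell and 1 rose (sums of 862 to 888 against 464 to 475 CPM), or 6 and 2 with library totals. All 8 endothelial markers rose (491 to 495 against 861 to 864 CPM). Of 10 T cell markers 3 rose and none fell, at low sums of 6.80 to 12.9 against 14.5 to 16.4 CPM, and none of the 3 tested NK cell markers or 5 tested neutrophil markers passed, with the neutrophil gene Ly6g at 0 counts in all libraries. Smooth muscle markers, which define the tissue, summed to 21307 to 21460 CPM in wild type and 20597 to 20733 CPM in the labelled knockouts, with 4 higher and 3 lower, or 7 higher and none lower with library totals. Of 8 fibroblast markers 3 rose and 5 fell (sums of 5874 to 6007 against 4161 to 4184 CPM), or 6 and 1 with library totals. Of 8 dendritic cell markers 3 fell and none rose, and of 8 lymphatic endothelial markers 4 rose and 2 fell. With library totals these lists gave 1 higher and 2 lower, and 5 higher and none lower. The extraction protocol speaks of an adipose type, and 4 of 8 adipocyte markers rose and none fell (529 to 559 against 686 to 695 CPM). On library totals the leukocyte markers stayed 8 of 8 lower and the endothelial markers 8 of 8 higher. The called interleukin members went both ways on the TMM scale, 8 higher and 8 lower, and none was assigned to a cell type here. The part of these marker differences in the results for the interleukin genes was not tested.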

How the data were processed

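RNA was measured in 6 mouse aorta libraries, 3 per group, from polyadenylated RNA by paired-end sequencing, per the labels' protocols. Per the submitters' processing notes the tools included HISAT2 2.0 and Bowtie 0.12.2 with build mm8, in no stated role. The counting tool, annotation and strand use were not given in the sources used here. Per the file headers the authors deposited FPKM and counts. The FPKM values were scaled by the authors to totals that include mitochondrial genes, as count over FPKM shows. The counts deposited by the authors are whole numbers, and the low ones peak at 4 (1091 to 1137 genes per library at 4, 792 to 867 at 3), and were treated as estimated counts; rounding changed 0 values. Coordinates of 62 of 74 members equal GENCODE M21 on GRCm38, so no mm8 coordinates are used.

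Genes passed filterByExpr (20132 of 41064), libraries were scaled with TMM, and edgeR 4.0.16 in R 4.3.3 tested labelled knockout against wild type with Benjamini-Hochberg adjustment. The standard error is the fold change over the root of the F statistic. The edgeR step was also run on simulated counts with independent libraries and changes set at random in both directions. That simulation does not cover the shift in mitochondrial share or the uneven spread among these libraries. DESeq2 1.42.0, limma 3.58.1 on log2(FPKM + 1) and log2(FPKM + 0.1), other scalings and filters, counts divided by 4, the replicate number as a block and each library left out were alternatives. Named were all members with an adjusted p under 0.05, a set of principal members, and the 3 smallest p-values of each pathway list, plus Stat3, Saa3, Hp, Ly6g, Gm13305, the 6 members at 0, Il27, Il17f, Il31ra, Il4, Il1rl2, Il18rap, Il17b, Il17d and Il17rc, named after their values were seen. Shared sequence was found with BLAST 2.17.0 (97% identity or more over 100 bases), and the Il11ra copies were aligned with Biopython 1.88. Exon overlaps are not given above for every named gene. On the same strand, other genes overlap 14.9% of the exon bases of Il10rb and 7.55% of Jak3. On the opposite strand the overlaps are 15.1% for Csf1r, 15.0% for Cebpd, 14.5% for Il17b, 12.8% for Pycard and 9.51% for Il4ra. Smaller overlaps of tested genes are not listed. Members and lists were chosen with earlier results of these data known. Detection limits cover counting error only, and the reading of 4 counts per pair is an inference.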

Additional observations from a re-analysis of the deposited data

How the results depend on the processing

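The main counts were 8 members higher, 8 lower, 4 ligands and antagonists called and 12 receptors called. With library totals they became 18 higher and 4 lower, with limma on log2(FPKM + 1) 17 and 4, and with limma on log2(FPKM + 0.1) 17 and 4. Over all genes these scales gave 9425, 9447 and 9330 higher and 768, 867 and 866 lower against 2658 and 2323. All 3 scale to library totals. With mitochondrial genes left out, with DESeq2's size factors in edgeR and with no filter, the counts of members stayed at 8 higher and 8 lower. A mean FPKM of at least 1, which leaves 11376 genes, gave 4 higher, 4 lower, 1 ligand or antagonist and 7 receptors. Counts divided by 4 gave 7 higher and 9 lower, with Il13ra2 removed by the filter and Il7r added. DESeq2 kept all 16 calls and called 10 higher and 11 lower. The replicate block gave 8 higher and 9 lower, adding Il7r. Deviations of same-numbered libraries had correlations of 0.03, -0.02 and -0.01, and other pairs ranged from -0.02 to 0.03. These values show no pairing by number but cannot exclude it, as each group has only 3 libraries. Leaving out 1 library gave 8 to 9 higher, 7 to 8 lower, 4 to 5 ligands and antagonists and 11 to 13 receptors. Of the 16 called members, 14 passed in all 6 of these fits, Il3ra in 4 and Il10ra in 2.

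Signs turned for Il33 (log2 fold changes of 0.029 with library totals, 0.027 with limma on log2(FPKM + 1) and 0.029 on log2(FPKM + 0.1)) and for genes without a call. With library totals Il16 was at 0.37, Il4ra at 0.30 and Il15 at 0.20. With limma on log2(FPKM + 1) Il16 was at 0.26, Il4ra at 0.25 and Il15 at 0.080, and with limma on log2(FPKM + 0.1) Il16 was at 0.35, Il4ra at 0.29, Il15 at 0.17 and Il18 at 0.038. Il18bp was at -0.011 with the FPKM filter. Without single libraries Il18bp ranged from -0.065 to 0.13, Il16 from -0.075 to 0.0078, Il15 from -0.44 to 0.039 and Il18 from -0.80 to 0.16. The cause was not tested. Depth limits the 26 members that were not tested.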
